A study of Mus musculus with 2 samples.

Results

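MHC class II molecules and the invariant chain CD74 were described here in immortalised mouse bone marrow cells with and without an active form of the transcription factor MEF2C. The set holds 9 genes, namely Cd74, H2-Aa, H2-Ab1, H2-Eb1, H2-DMa, H2-DMb1, H2-Oa, H2-Ob and Ciita, of 27670 gene names on the array. Probes were taken by gene name, with the older symbol C2ta counted as Ciita, which gave 14 of 41174 probes. The members were chosen by name, and the set was selected on processed signals of these same arrays, with the large difference of Cd74 already known, so the Cd74 value is a description and supports nothing further.

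The cells were M/E cells, a line of mouse bone marrow cells immortalised by the fusion gene MLL/ENL. Both groups share the genotype Mef2c del/- and the MLL/ENL fusion. The MEF2C-ASR group was infected with the retroviral vector MYs-pMef2cASR, which encodes a constitutively active MEF2C that is mutated in its binding of histone deacetylases, and the control group with the empty vector MYs-iPAC. Both were selected with puromycin and grown in RPMI with 10% FCS, 10 ng/ml each of IL6, GM-CSF and IL3, and 100 ng/ml SCF. Cells were taken at 6, 24 and 48 h after seeding, and the RNA of these harvests was pooled, so that each group is 1 pooled RNA on 1 array. The strain of the mice and the number of clones behind the line are not given in the labels.

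Classical MHC class II molecules are pairs of an alpha and a beta chain that show peptides from endosomes to CD4+ T cells. CD74 binds new pairs in the endoplasmic reticulum, blocks their peptide groove and guides them to endosomes, where proteases such as cathepsin S trim it and H2-DM exchanges the remaining fragment for a peptide. The genes share a promoter layout, with an X box bound by the RFX complex and a Y box bound by NF-Y, and CIITA is the coactivator that assembles on it. CD74 also acts at the cell surface as a receptor for the cytokine MIF.

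The shared promoter layout can be read directly from the reference sequence. RefSeq promoter windows of the mouse assembly GRCm38.p6 were at hand for 6 of the 9 members (7 windows, as H2-DMa has 2). No window was at hand for Cd74, H2-Ab1 or Ciita. In the 250 bases before each gene start, the Y box letters TGATTGG were searched on the gene's strand, together with the X box letters GCAAC or GTAAC at most 60 bases upstream of them on the same strand and not overlapping them. Both were found in this order for 5 of the 6 genes (71.4% of the 7 member windows), and 0.347% of all 32851 windows hold such a pair. TGATTGG alone stands on the gene's strand in 3.64% of all windows and on either strand in 7.23%. The letters are those of the layout that class II genes are known to share. The members were chosen as class II genes, so the count illustrates this layout and tests nothing. The windows of the 5 genes are shown with the X letters and then the Y letters in capitals.
H2-Oa, chr17:34092293-34092348, plus strand: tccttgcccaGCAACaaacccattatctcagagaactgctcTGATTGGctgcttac
H2-DMb1, chr17:34153087-34153142, plus strand: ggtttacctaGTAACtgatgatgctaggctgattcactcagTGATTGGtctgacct
H2-Ob, chr17:34238808-34238860, plus strand: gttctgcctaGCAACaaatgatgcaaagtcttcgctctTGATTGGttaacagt
H2-Aa, chr17:34287859-34287914, minus strand: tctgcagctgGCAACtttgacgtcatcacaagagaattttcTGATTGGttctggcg
H2-Eb1, chr17:34305766-34305820, plus strand: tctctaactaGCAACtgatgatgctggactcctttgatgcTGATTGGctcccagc
The stretch between the capitals is 26 bases in H2-Oa, H2-DMb1 and H2-Aa, 25 in H2-Eb1 and 23 in H2-Ob. The Y letters start between 45 and 63 bases before the gene start. Neither H2-DMa window holds the letters as searched, which says nothing about the factors that bind there. A match of letters is a description of the sequence, and binding was not measured.

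The arrays give 1 processed signal per spot on a linear intensity scale, and a flag for spots well above background. The flag was set for 29283 of 43379 spots (67.5%) with MEF2C-ASR and for 26054 (60.1%) in the control. The lowest signal well above background was 20.0 on the MEF2C-ASR array and 38.3 on the control array, so a dim probe could pass on the MEF2C-ASR array more easily. Signals were set to a log2 level relative to each array's 75th percentile (1240 with MEF2C-ASR, 1272 in the control), and a gene was called measured where a probe was well above background on both arrays. Of 16574 measured genes, 289 (1.74%) were at least 2-fold higher in MEF2C-ASR and 316 (1.91%) at least 2-fold lower, and the median difference over all of them was -0.03 on the log2 scale. Of these calls 47.8% were higher, and with scaling by the spike-in spots 33.1% were (214 higher and 433 lower), where the median was -0.18. With 1 array per group there is no test, and "higher" and "lower" describe these 2 arrays. The errors given beside signals are those of the scanner software and cover the spot measurement only, not variation between cultures. In bulk RNA, fewer cells with a transcript and less of it per cell cannot be told apart.

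Mef2c, the gene put back, had a signal of 1969 on the MEF2C-ASR array, against 795 on the control array, at one probe (2.54-fold higher). Its other probe gave 7.76 with MEF2C-ASR and 7.86 in the control and lacked the flag on both arrays. The first probe was well above background in the control too, although those cells carry the Mef2c del/- genotype. The labels do not say whether the vector's transcript or the deleted allele's transcript holds either probe, so the signal does not separate introduced from endogenous RNA.

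Cd74 was higher with MEF2C-ASR, while H2-Ab1, H2-Eb1, H2-DMa, H2-DMb1 and H2-Oa differed by less than 2-fold, and H2-Aa, H2-Ob and Ciita were not measured. Of the 9 members 6 were measured on both arrays, 1 was at least 2-fold higher (against 1.74% of all measured genes) and 0 were at least 2-fold lower (against 1.91%). Of the 6 measured, 5 had a difference above 0 and 1 below, with a median of 0.30. Over all measured genes 44.8% were above 0, and the range between the 5th and 95th percentile ran between -0.59 and 0.56. The single call is Cd74 itself, whose difference was known when the set was chosen.

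**Figure D1:**
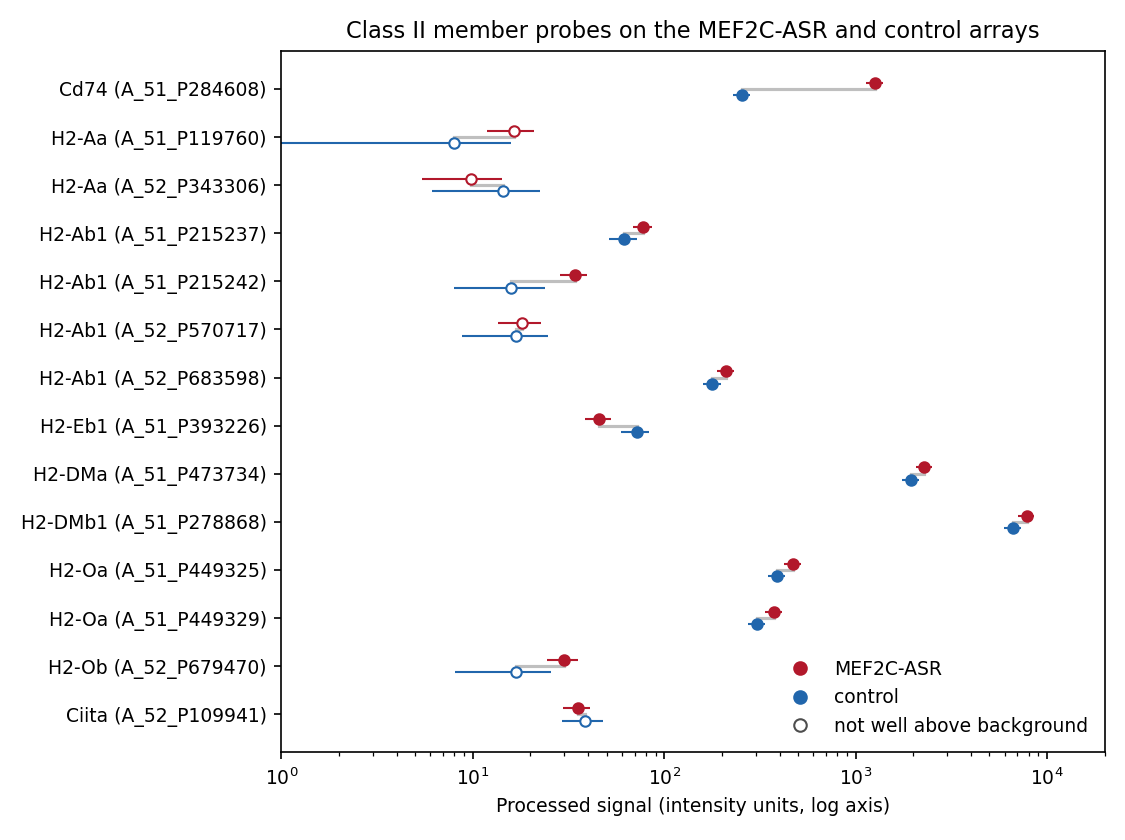
Processed signal (x axis, log scale, intensity units) of the 14 member probes on the MEF2C-ASR array (red) and the control array (blue), with the software's error as bars that end at the axis limit. Filled points are well above background. The Cd74 probe is the one with a wide gap between the arrays, 1258 with MEF2C-ASR and 255 in the control, while both H2-Aa probes are open on both arrays.

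Cd74 encodes the invariant chain. Its single probe, on chromosome 18 (61201860 to 61201917; the sources used here name no build for the probe positions), had a signal of 1258 ± 126 with MEF2C-ASR, against 255 ± 26.8 in the control. The difference was 2.34 on the log2 scale with a software error of 0.21, or 5.07-fold higher in MEF2C-ASR, which ranked 18 of the 16574 measured genes. The probe was well above background on both arrays. Among Cd74 and the 4 protein-coding genes on each side of it in the RefSeq gene order, 8 of 9 were measured, and Cd74 alone was past 2-fold. The other measured genes of that stretch lay between -0.78 and 0.17.

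The classical chains were dim on both arrays. H2-Ab1, the I-A beta chain, has 4 probes on the array, of which 2 were measured. The brighter probe (chromosome 17, 32346939 to 32346998, same unnamed build) had 211 ± 21.4 with MEF2C-ASR, against 178 ± 19.4 in the control, a log2 difference of 0.28. The other measured probe (chromosome 17, 32345268 to 32345327) is printed 10 times on each array and so shows the spotting error directly. Its 10 spots had a lowest signal of 67.3, a median of 78.3 and a highest of 93.1 with MEF2C-ASR, against 55.3, 62.1 and 79.1 in the control. The spots of the arrays overlapped in range, and 9 of the 10 positions were higher in MEF2C-ASR, with a mean log2 difference of 0.34 and an SD over spots of 0.16. These spots repeat 1 RNA pool and are not replicates of the condition. Without the 4 spots that the software flagged as outliers on either array, 6 of 6 were higher in MEF2C-ASR and the mean difference was 0.37 (SD 0.13 over spots). The mean over both measured probes was 0.32, with 88.5% of measured genes at or below it.

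**Figure D2:**
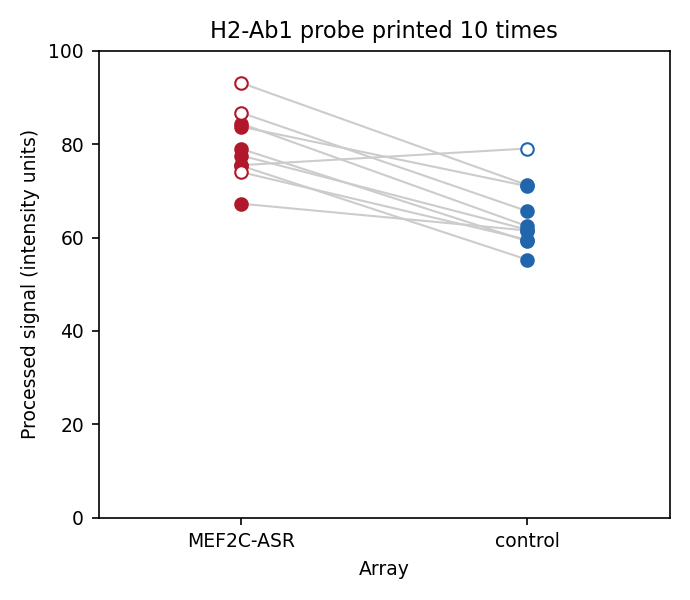
Processed signal (y axis, intensity units) of the H2-Ab1 probe printed 10 times, with MEF2C-ASR left and control right; grey lines join the same position, and open points are flagged as outliers on that array. The MEF2C-ASR spots lie between 67.3 and 93.1 and the control spots between 55.3 and 79.1, so the ranges overlap while 9 of the 10 lines slope down to the control.

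The remaining H2-Ab1 probes did not reach the background limit on both arrays. One had 34.1 ± 5.43 with MEF2C-ASR and 15.9 ± 7.94 in the control, and carried the flag with MEF2C-ASR alone. The other had 18.2 ± 4.62 with MEF2C-ASR and 16.7 ± 7.97 in the control, on neither. A fold is not given for either, because the brighter signal is below the lowest signal that counts as well above background on the control array.

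H2-Aa encodes the alpha chain that pairs with H2-Ab1. Neither of its probes reached well above background: one had 16.4 ± 4.49 with MEF2C-ASR and 7.98 ± 7.94 in the control, the other 9.84 ± 4.44 with MEF2C-ASR and 14.3 ± 8.15 in the control. The alpha chain of I-A was thus not detectable by these probes, and a difference could not be measured. H2-Eb1, the I-E beta chain, had 45.6 ± 6.90 with MEF2C-ASR, against 71.7 ± 11.9 in the control. Its difference of -0.62 (software error 0.32) was the only one below 0 among the measured members and stayed within 2-fold. Only 4.69% of measured genes had a difference at or below this one. For probes of this brightness the spotting error of a 1-spot difference is large, with an SD of 0.29 over 43 repeat probes below a level of -3, compared with 0.073 over 107 brighter ones.

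The H2-DM subunits exchange the CD74 fragment in the groove for peptides. H2-DMa (chromosome 17, 32217439 to 32218002) had 2285 ± 228 with MEF2C-ASR, against 1946 ± 195 in the control, and H2-DMb1 (chromosome 17, 32236685 to 32236744) had 7807 ± 781 with MEF2C-ASR, against 6631 ± 663 in the control. Each was 0.27 on the log2 scale with a software error of 0.20. That exceeds the spotting SD of bright probes, 0.073, which leaves out spots flagged as outliers. Over all 150 repeat probes, dim ones included, the SD was 0.16 without those spots. With those spots kept it was 0.26, about the size of the H2-DM differences. An SD with those spots kept was not computed for bright probes alone, so 0.26 is not the spotting error of bright probes such as these. Both differences lie between the median and the 95th percentile of all measured genes. H2-DMb2, a close paralogue of H2-DMb1, gave the same 0.27 at its measured probe, and signals of these near-identical genes cannot be assigned to one of them with certainty.

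H2-O is an inhibitor of H2-DM in B cells and dendritic cells. H2-Oa has a pair of probes side by side on chromosome 17. The first (32174944 to 32175003) had 470 ± 47.2 with MEF2C-ASR, against 389 ± 39.6 in the control, and the second (32174875 to 32174935) had 374 ± 37.6 with MEF2C-ASR, against 304 ± 31.4 in the control. Their log2 differences of 0.31 and 0.33 lie closer to each other than the software error of 0.21. H2-Ob, the partner chain, had 29.9 ± 5.52 with MEF2C-ASR and 16.8 ± 8.78 in the control, and carried the flag with MEF2C-ASR alone, at a signal too dim for a fold.

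Ciita encodes the coactivator of class II genes. Its probe (chromosome 16, 10203747 to 10203806) had 35.3 ± 5.61 with MEF2C-ASR and 38.4 ± 9.29 in the control. The flag for well above background was set on the MEF2C-ASR array alone although the signal was no higher there, and the lowest signal that carried the flag was lower on that array (20.0 with MEF2C-ASR, 38.3 in the control). Ciita was therefore dim but above the limit on the MEF2C-ASR array and at the limit on the control array, and no difference is reported. Over all probes, 11 of the 14 were well above background with MEF2C-ASR and 8 in the control, 3 of them with MEF2C-ASR alone and 0 in the control alone. The same lopsided count holds over the array, where 2220 genes carried the flag with MEF2C-ASR alone and 188 in the control alone.

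**Figure D3:**
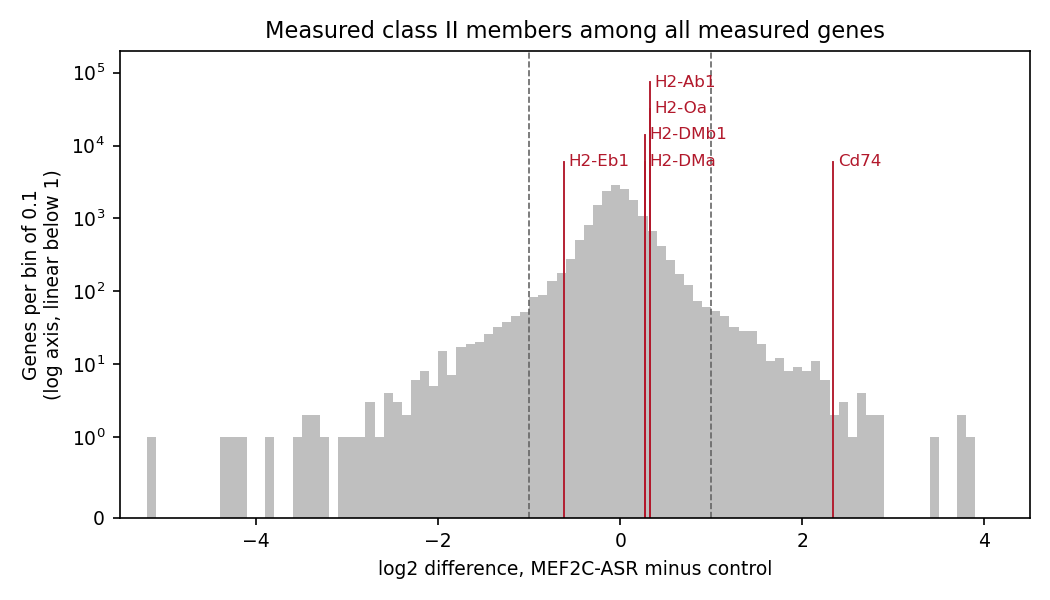
Number of measured genes (y axis, log scale that is linear below 1) by log2 difference, MEF2C-ASR minus control (x axis, bins of 0.1), with the 6 measured members as red lines and 2-fold as dashed lines. Cd74 at 2.34 is far out in the right tail, H2-Eb1 at -0.62 left of the centre, and the other members stand between 0.27 and 0.32.

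The members on chromosome 17 can be set beside their neighbours. Between H2-Oa and H2-Ea the RefSeq gene order holds 15 genes, the protein-coding ones and H2-Ea, which that assembly lists as a transcribed pseudogene. Of these 11 were measured and 0 reached 2-fold in either direction. Over all measured genes 1.74% were at least 2-fold higher and 1.91% lower, so a count of 0 here is near that share. Their median was 0.27 and their range ran between -0.62 and 0.71. The region also holds class I processing genes such as Tap1, Tap2, Psmb8 and Psmb9, so the small positive median is not a value of the class II chains alone. Further class II chains were dim: H2-Ea lacked the flag on both arrays, and H2-Eb2 was well above background in the control alone, with 12.9 with MEF2C-ASR and 77.9 in the control. These signals are from 1 of the 2 probes of H2-Eb2, where its level was at least 3.80-fold lower in MEF2C-ASR. Of the 188 genes well above background in the control alone, 97.3% had a bound of at least 2-fold.

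Genes of the surrounding pathway were described by 8 lists of 66 genes outside the members. Of these, 56 were measured, 4 (7.14%) were at least 2-fold higher in MEF2C-ASR, 0 were at least 2-fold lower, and the median was 0.24. The same rule called 1.74% of all measured genes higher, and the lists were drawn up with earlier results known, so the count is a description.

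Among 12 genes that trim CD74 or act in endosomal antigen processing, 2 were higher and the median was 0.07. Ctss, cathepsin S, the protease that makes the last cut of CD74 in antigen-presenting cells, had 6211 with MEF2C-ASR, against 1042 in the control (log2 difference 2.61, 6.11-fold higher). Marchf1, a ubiquitin ligase that removes class II molecules from the surface, had 589 with MEF2C-ASR, against 207 in the control (2.91-fold higher at 1 of its 2 probes, 1.54 on the log2 scale). With its dim probe averaged in, the difference of Marchf1 was 0.33, below 2-fold. The abundant Ctsz, Cst3 and Ctsd, a cathepsin, a protease inhibitor and an aspartic protease of lysosomes, differed by 0.05, 0.02 and 0.47.

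The 7 factors that bind class II promoters were all measured, and 0 were past 2-fold, with a median of -0.01. Of all measured genes 1.74% were higher and 1.91% lower by this rule, so a count of 0 is near that share. Rfx5, Rfxank and Rfxap, the subunits of the RFX complex, differed by 0.43, 0.07 and -0.12. Nfya, Nfyb and Nfyc, the NF-Y subunits, differed by -0.22, -0.01 and -0.22, and Creb1, which joins the complex, by 0.40. All 7 were thus measurable on both arrays and within 2-fold.

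Of 11 genes that act upstream of Ciita, 9 were measured and 0 were past 2-fold (median 0.23). This count too is near the share over all measured genes, 1.74% higher and 1.91% lower. Irf4, a factor of B cells and dendritic cells, had 82.5 with MEF2C-ASR and 38.6 in the control, where it lacked the flag. Its level was 2.19-fold higher in MEF2C-ASR. This is the ratio to a control signal not well above background, so it is not a lower limit. Of the 2220 genes flagged with MEF2C-ASR alone, 3.78% reached 2-fold in this way. Ifngr1, an interferon gamma receptor chain, and the kinases Jak1 and Jak2 differed by 0.23, 0.58 and 0.76. Among the 10 interferon gamma response genes 8 were measured and Cxcl10, a chemokine, was higher, with 714 with MEF2C-ASR, against 303 in the control (2.42-fold). Iigp1, an interferon-induced GTPase, was well above background in the control alone, with 11.7 with MEF2C-ASR and 45.3 in the control. It was at least 2.21-fold lower in MEF2C-ASR, but 97.3% of the 188 genes flagged in the control alone had a bound of at least 2-fold. Socs1, the feedback inhibitor of cytokine signalling, differed by 0.92 and stayed within 2-fold.

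CD74 is also part of the MIF receptor, and 5 of the 6 genes of that list were measured with a median of 0.45. Cxcr2, a chemokine receptor that can bind MIF, had 290 with MEF2C-ASR, against 128 in the control (2.33-fold higher). With background correction by normexp the difference was 0.85, below 2-fold. Mif itself differed by -0.20, its homologue Ddt by 0.45 and the CD74 partner Cd44 by 0.47. The costimulatory ligands had 4 of 6 members measured and 0 past 2-fold (median 0.62). The highest in level were Icosl, Cd274 and Cd80, with differences of 0.75, 0.71 and -0.09. Of 13 class I presentation genes 12 were measured and 0 were past 2-fold (median 0.21), with H2-D1 at 0.14, Pdia3 at 0.18 and Psmb8 at 0.38. For the costimulatory and class I lists, counts of 0 are near the share over all measured genes, 1.74% higher and 1.91% lower.

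**Figure D4:**
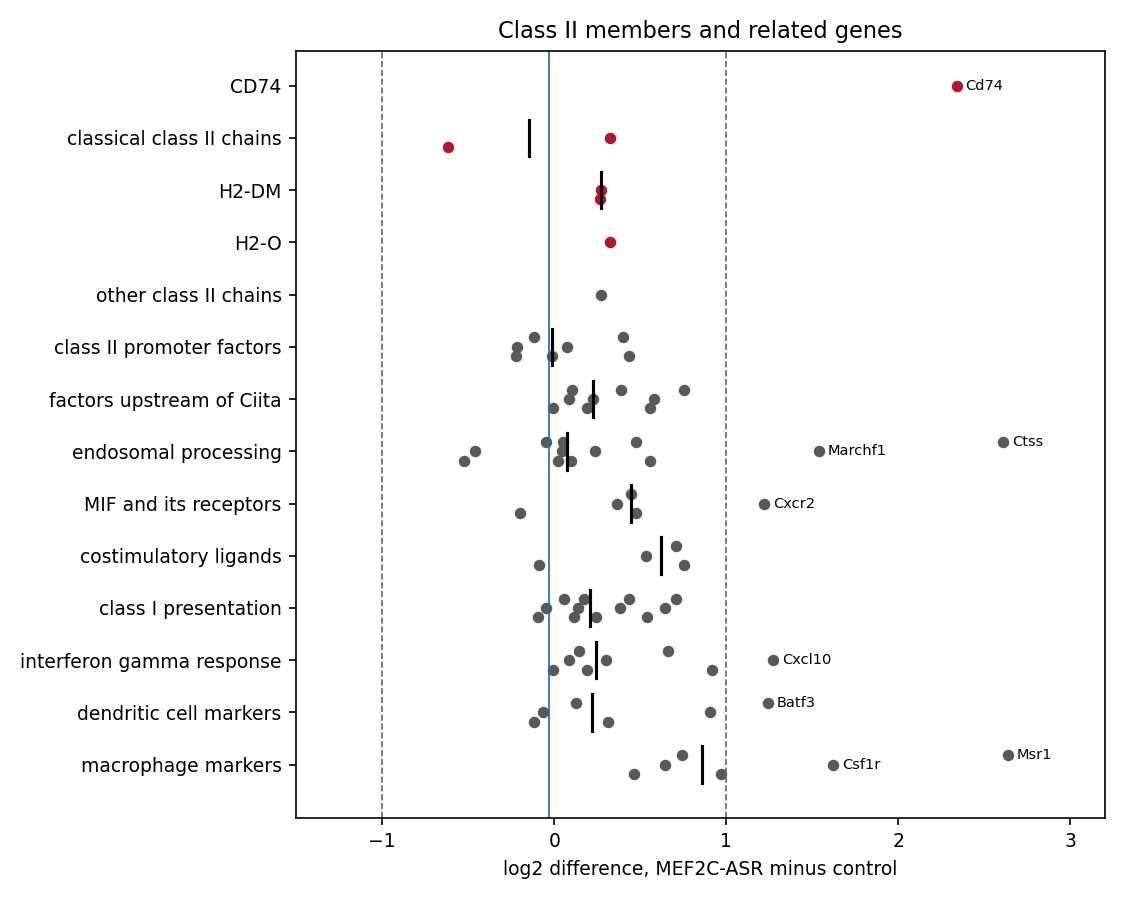
Log2 difference, MEF2C-ASR minus control (x axis), of each measured gene in the member lists (red) and in the related, dendritic cell and macrophage marker lists (grey), with list medians as black bars, the median of all measured genes as a blue line and 2-fold as dashed lines. Named points are past 2-fold, and none of the measured genes shown lies below -1.

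Markers of cell types that carry class II molecules were read in the same way. Of 8 macrophage markers 6 were measured, with a median of 0.86 (against -0.03 over all measured genes). Of these 6, 2 were at least 2-fold higher in MEF2C-ASR (against 1.74% of all measured genes) and 0 lower (against 1.91%). Their summed signal was 88151 with MEF2C-ASR, against 53095 in the control, and 91.5% of it with MEF2C-ASR and 91.5% in the control was Lyz2, lysozyme. Without Lyz2 the sum was 7529 with MEF2C-ASR, against 4511 in the control. Csf1r, the M-CSF receptor, was 3.08-fold higher in MEF2C-ASR. Msr1, a scavenger receptor, was 6.23-fold higher at the 1 of its 3 probes that was measured, with 295 with MEF2C-ASR, against 48.5 in the control. Its log2 difference of 2.64 was 1.67 with normexp. Lyz2, Adgre1, Cd68 and Cd14 differed by 0.97, 0.74, 0.65 and 0.46, each within 2-fold. Mrc1 carried the background flag on neither array and C1qa with MEF2C-ASR alone. Of 10 dendritic cell markers 6 were measured, with a median of 0.22 and a summed signal of 1131 with MEF2C-ASR, against 771 in the control. That median depended on the probes used: it was -0.26 with all probes kept and 1.24 with brighter probes alone. Xcr1, Flt3, Zbtb46 and Fscn1 differed by 0.31, 0.13, -0.07 and -0.12. The probes of Itgax disagreed in size, with 1.75 at one and 0.06 at the other. Batf3, a factor of dendritic cells, was 2.37-fold higher, below 2-fold with normexp (0.95 on the log2 scale), and Clec9a, Siglech, Ccr7 and Cd209a carried the flag on neither array. Among the B cell markers Cd79a, a chain of the B cell receptor, had 119 with MEF2C-ASR, against 55.3 in the control. It was 2.21-fold higher in MEF2C-ASR, and below 2-fold with normexp (0.60 on the log2 scale). Ebf1 carried the flag on neither array, and Cd79b, Ms4a1, Pax5, Blk and Cd22 with MEF2C-ASR alone. By the 2-fold rule Msr1, Csf1r, Batf3 and Cd79a were higher in MEF2C-ASR, as Cd74 was, and the other measured markers were within 2-fold. The part of any of these cell types in the Cd74 difference was not tested.

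**Figure D5:**
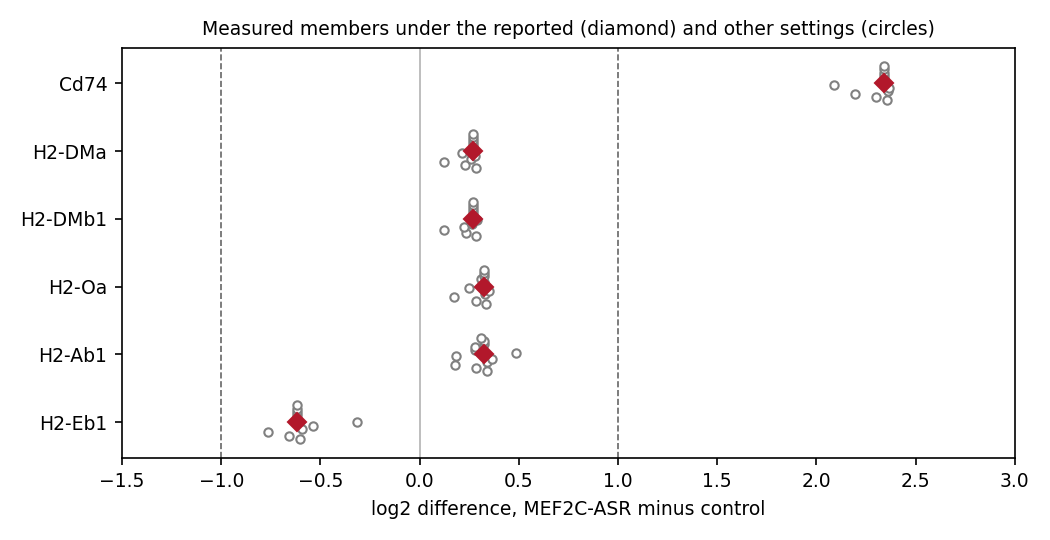
Log2 difference, MEF2C-ASR minus control (x axis), of the 6 measured members with the reported processing (diamonds) and with each alternative (circles), and 2-fold as dashed lines. Cd74 stays between 2.09 and 2.37 and H2-Eb1 below 0, and the remaining members stay between 0.12 and 0.48.

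Across the alternatives for scaling, background, dim probes and spot flags, Cd74 was the one measured member past 2-fold. Its lowest value, 2.09, came with normexp. H2-Eb1 ranged between -0.76 and -0.31, and had no value where the brighter probes alone were kept. No setting gave a usable difference for H2-Aa, H2-Ob or Ciita, whose probes lacked the background flag on at least 1 array.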

How the data were processed

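Members and lists were chosen with earlier results of these data known. The deposited values are processed intensity on a linear scale, made by Feature Extraction 9.5.1.1 per the file headers, which subtracted background and set the flags used here. The deposited value table equals these signals. Slide and scan were shared by both arrays, as their headers show. From these, log2 levels minus each array's 75th percentile over 43379 non-control spots were computed (Python 3.11.15, pandas 2.3.3); control spots and spots flagged as outliers (201 with MEF2C-ASR, 202 in the control) were left out and spots of a probe averaged. Of 41174 probes, 22951 were named by accession, 6659 by symbol and 3109 by older symbol through RefSeq GRCm38.p6, and 8455 kept the file's name. A gene is the mean of its measured probes, called where at least 2-fold with all of them of 1 sign. A probe well above background on 1 array got a bound, its bright level over the dim level or, if higher, over the dimmest flagged level of the other array. Named are all members and Mef2c, and in each list genes past 2-fold with up to 3 of highest level; further list genes were named after their values were seen. One B cell marker is not reported here. Normexp used limma 3.58.1, offset 50. Steps were tested on simulated arrays, with changes only in genes above a mean level of -3. Both simulated arrays carried the control's background flags, so changes in dim genes and the bounds were not tested.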

Additional observations from a re-analysis of the deposited data

How the results depend on the processing

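With 1 array per group the number of arrays limits every value, and dim probes are further limited by background. The sign of each measured member stayed the same under all alternatives run. H2-Ab1 (0.32 as reported) was 0.18 with spike-in scaling, 0.18 with normexp and 0.48 with all probes kept. Over all genes, 161 were at least 2-fold higher and 122 lower with normexp, and 790 higher and 980 lower with all probes kept, against 289 and 316 as reported; with brighter probes alone 203 were higher and 109 lower. Of the related genes 1 was lower with all probes kept, against 0. Spike-in scaling put the median of all genes at -0.18 in place of -0.03, with 214 higher and 433 lower. One alternative, keeping population-outlier spots, was chosen after seeing the data, was run for the members alone and changed no call among them. The causes were not tested. No paired analysis was possible because each group has 1 array.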
